A study of Mus musculus with 50 samples.

Results

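The genes described here are 10 genes of arginine metabolism and transport, chosen by name: the cationic amino acid transporters Slc7a1 and Slc7a2, the inducible nitric oxide synthase Nos2, the arginine-recycling enzymes Ass1 and Asl, the arginases Arg1 and Arg2, and Odc1, Srm and Oat, which use the ornithine that arginase makes or a product of it. They are 10 of the 21954 genes in the tables, and all 10 have values in every library. Their mRNA was measured by poly A RNA-seq in cultured mouse macrophages and in mouse digits after amputation. The macrophages were grown from the bone marrow of young adult female C57BL/6 mice and kept for 24 hours in basal medium (M0, called baseline in the labels), with IFN-γ and LPS (M1), or with IL-4 (M2), with 3 libraries per state. The labels give 24 hours for M1 and M2 and no time for M0. The digits came from young adult male C57Bl/6 mice whose terminal phalanx (P3) of hindlimb digit 3 was cut. In the non-regenerative group the labelled level ran from 60% to 80% of P3, and 29 digits were taken at 0, 3, 6, 12 and 24 hours and at 3, 7, 14 and 21 days. Some of these levels lie below the paper's own limit for non-regenerative digits, among them replicates 1 and 2 at 0 hours (62%) and at 12 hours (64%). The level also varied with time, and at 21 days it ran from 71% to 79%. In the intermediate group, called medium in the labels, the level ran from 41% to 55%, and 12 digits were taken at 0 and 24 hours and at 14 and 21 days. Each group and time has 3 digits, with 5 non-regenerative digits at 7 days. No transgene or mutation is named for any mouse, a digit library holds all cells around the wound bed, and digits from the regenerative level were not analysed here.

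Arginine enters macrophages and many other cells through the transporters Slc7a1 (CAT1) and Slc7a2 (CAT2). Inside the cell it has competing fates. Nitric oxide synthase converts it to nitric oxide and citrulline, which Ass1 and Asl turn back into arginine. Arginase splits it into urea and ornithine, which Odc1 commits to polyamines and Oat commits to proline and glutamate. Inflammatory stimulation of mouse macrophages is known for inducing Nos2 and IL-4 for inducing Arg1, and these genes serve as the textbook markers of M1 and M2 macrophages.

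Library totals ran from 15683424 to 27904773 counts in macrophages and from 1468749 to 13011782 in digits, so low genes are less precisely measured in digits. Levels are given as normalized TPM, a unit per transcript length that the authors scaled between libraries. The macrophage and the digit tables were scaled separately, so levels are compared within a table only. The dates in the digit labels form an earlier period of 24 digits and a later period of 17. All non-regenerative digits at 3 and 12 hours and all intermediate digits at 21 days were from the earlier period, and all non-regenerative digits at 21 days from the later. Digits of 0 hours came from both periods in each group, so these times can be set against 0 hours within a period, but between the groups at 21 days the cut level and the date period cannot be told apart. Non-regenerative replicate 2 at 14 days stood apart, with normalized TPM summing to 3362791 against at most 1434851 in any other digit. Non-regenerative replicate 3 at 3 hours was the shallowest digit. Across the digit labels 5 pairs of digits share an animal mark, date and side, and whether a mark is unique to 1 animal is not given. They are intermediate replicate 1 and non-regenerative replicate 3 at 14 days, intermediate replicates 2 and 3 at 0 hours with non-regenerative replicates 1 and 2 at 12 hours, non-regenerative replicate 1 at 0 hours with replicate 3 at 12 hours, and non-regenerative replicate 3 at 3 days with replicate 1 at 7 days. Of these, the pair of 0 and 12 hours and the pair of 14 days lie within a comparison of a pair of groups made here, and the pairs of 0 and 12 hours and of 3 and 7 days within the test over time. All 8 macrophage markers were above 0 in each macrophage state, and the 7 keratinocyte markers summed to at most 1.67 normalized TPM there. Other marker lists were not near 0 there. The 6 fibroblast markers had mean sums of 734 normalized TPM in M0, 412 in M1 and 1143 in M2. For the 7 neutrophil markers the mean sums were 388, 182 and 464. In the test described below, 4 of the 6 fibroblast markers were lower in M1 than in M2 and 1 was higher. Of the 7 neutrophil markers, 5 were lower and none higher. Of all genes tested, 27.9% were lower in M1 than in M2 and 20.1% higher. Whether the cultures held other cell types was not tested. In the digits the keratinocyte markers summed to between 21700 and 121000, and the macrophage markers to between 35.5 and 2030.

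The genes lie on 8 chromosomes of GRCm38, and their gene bodies were taken from the GENCODE annotation of that build. Nos2 is at chr11:78920787-78960254, Arg1 at chr10:24915221-24927484, Arg2 at chr12:79130777-79156301 and Ass1 at chr2:31470207-31520672. Asl is at chr5:130011258-130029247, Slc7a1 at chr5:148327410-148399904, Slc7a2 at chr8:40862396-40922308 and Odc1 at chr12:17544794-17551505. Oat is at chr7:132557478-132576398 and Srm at chr4:148591503-148594993. Ass1 shares 38.6% of the 50-base stretches of its transcripts with the copy Gm5424, which held at most 3.09 counts in any macrophage library and 23.9 in any digit. Odc1 shares 24.3% with copies such as Gm7993, and Arg2 shares 21.2%, mainly with Vti1b on the opposite strand. Counts of Ass1, Odc1 and Arg2 are uncertain to the extent that reads were divided among these genes. Whether strand was used in counting is not given in the sources used here.

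The plot of the levels in the macrophages shows the 10 genes in the order of their roles. Of the 10 genes, 7 were called different between M1 and M0, with 5 higher and 2 lower. A gene was called when its adjusted p in edgeR's quasi-likelihood test was under 0.05 and its mean normalized count plus 1 changed by more than 2-fold. Of all genes tested in this comparison 46.1% were called, 20.1% higher and 26.0% lower. Between M2 and M0, 6 of the 10 were called, all of them higher, against 22.3% of all genes and 11.0% called higher. Between M1 and M2, 5 of the 10 were called, 2 higher in M1 and 3 lower, against 48.0% of all genes, 20.1% higher and 27.9% lower. The median log2 fold change of the 10 genes was 2.22 in M1 and 1.72 in M2, beside -0.09 and -0.004 over all genes tested. M1 and M2 were set against the same 3 M0 libraries. No source says whether the 3 libraries of a state came from separate mice or cultures, so the p-values measure the spread between these libraries, which may be technical.

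**Figure D1:**
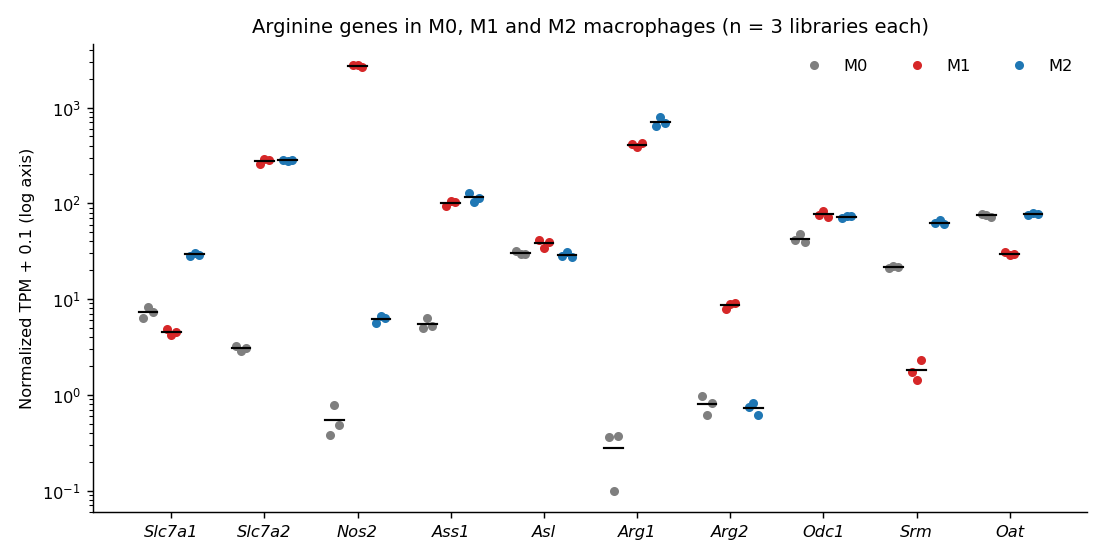
Levels of the 10 arginine genes in macrophages: each point is 1 library, black bars are means of 3, and the vertical axis is normalized TPM plus 0.1 on a log scale. Nos2 stands at 2644 to 2764 in M1, Slc7a2 and Ass1 are high in both M1 and M2, and Srm is lowest in M1 and highest in M2.

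The largest contrast among the transporters was in Slc7a2, the inducible carrier. Slc7a2 was at 3.16, 2.76 and 2.96 normalized TPM in the M0 libraries, at 257.0, 289 and 283 in M1, and at 285, 278 and 280 in M2. All M1 and M2 libraries lay far above M0, and the ranges of M1 and M2 overlapped. The log2 fold change against M0 was 6.33 ± 0.08 (SE) in M1 and 6.42 ± 0.06 in M2, with edgeR adjusted p of 1.48e-14 and 4.02e-13. M1 and M2 differed by only -0.19 ± 0.06 on the log2 scale (edgeR adjusted p = 0.0113), which is under 2-fold.

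Slc7a1, the carrier that most cells express all the time, separated the states. It was at 6.22, 8.22 and 7.15 normalized TPM in M0, at 4.82, 4.16 and 4.43 in M1, and at 28.4, 30.3 and 28.8 in M2. The M2 libraries lay above all others and the M1 libraries below all others. In M2 its log2 fold change against M0 was 1.964 ± 0.086 (edgeR adjusted p = 6.22e-09), and M1 stood below M2 (-2.74 ± 0.06, edgeR adjusted p = 2.65e-14). In M1 it was -0.69 ± 0.11 against M0, with an edgeR adjusted p of 0.0001, and did not pass the fold threshold. Slc7a2 made up 25.1% to 33.7% of the summed level of the 2 carriers in M0, 98.2% to 98.6% in M1 and 90.2% to 90.9% in M2.

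Nos2, which makes nitric oxide in activated macrophages, had the largest change of the 10 genes in M1. It was at 0.279, 0.684 and 0.382 normalized TPM in M0, which came from 18 to 36 counts per library. It rose to 2753, 2764 and 2644 in M1 and stood at 5.53, 6.64 and 6.28 in M2. The states did not overlap. Against M0 the log2 fold change was 12.69 ± 0.15 in M1 (edgeR adjusted p = 1.02e-14) and 3.81 ± 0.21 in M2 (edgeR adjusted p = 3.04e-08), and M1 exceeded M2 by 8.77 ± 0.09. Nos2 was therefore also called higher in M2, at a level far under that of M1.

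Ass1, the argininosuccinate synthase that begins the rebuilding of arginine from citrulline, rose in both states. It was at 4.91, 6.204 and 5.15 normalized TPM in M0, at 93.7, 105 and 103 in M1, and at 129, 103 and 115 in M2. M1 and M2 overlapped, and both lay far above M0. The log2 fold changes were 4.23 ± 0.09 in M1 and 4.35 ± 0.11 in M2 (edgeR adjusted p = 3.97e-13 and 1.28e-10). Asl, the lyase of the next step, stayed between 27.6 and 41.6 normalized TPM in the 9 libraries. Its log2 fold change was 0.31 ± 0.06 in M1 and -0.16 ± 0.06 in M2 (edgeR adjusted p = 0.000431 and 0.0299), both under the fold threshold.

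Arg1, the cytosolic arginase, was close to absent in M0 and abundant in both polarized states. It was at 0.263, 0 and 0.268 normalized TPM in M0, from 6, 0 and 5 counts. It was at 415, 392 and 424 in M1 and at 640, 789 and 692 in M2, without overlap. The log2 fold change against M0 was 11.08 ± 0.15 in M1 and 11.80 ± 0.20 in M2 (edgeR adjusted p = 2.18e-14 and 1.65e-11), sizes that depend on how the few M0 counts are treated. M1 was below M2 (-0.81 ± 0.07 on the log2 scale, edgeR adjusted p = 7.44e-08), which is under the fold threshold. Of the summed level of Arg1 and Nos2, Arg1 made up 12.4% to 13.8% in M1 libraries and 99.1% to 99.2% in M2 libraries.

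Arg2, the mitochondrial arginase, rose in M1 and did not pass the test in M2. It was at 0.870, 0.511 and 0.716 normalized TPM in M0 and at 0.648, 0.728 and 0.518 in M2, with overlapping ranges, and at 7.72, 8.82 and 9.01 in M1. Its log2 fold change against M0 was 3.58 ± 0.22 in M1 (edgeR adjusted p = 1.06e-08) and -0.23 ± 0.33 in M2 (edgeR adjusted p = 0.553), and M1 differed from M2 by 3.71 ± 0.21 (edgeR adjusted p = 4.55e-10). Arg2 stayed the minor arginase in M1, at 1.83% to 2.20% of the summed arginase level.

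Downstream of arginase, Srm, the spermidine synthase, moved in opposite directions in the 2 states. It was at 21.2, 22.1 and 21.6 normalized TPM in M0, at 1.65, 1.32 and 2.20 in M1, and at 61.6, 66.7 and 60.5 in M2, with no overlap. On the log2 scale the change was -3.57 ± 0.15 in M1 and 1.48 ± 0.06 in M2 (edgeR adjusted p = 2.70e-10 and 5.83e-09), and M1 differed from M2 by -5.14 ± 0.12. The M1 values rest on 9 to 27 counts per library. Odc1, the ornithine decarboxylase that starts polyamine synthesis, was at 40.9, 47.4 and 39.5 in M0, at 75.9, 82.4 and 72.5 in M1, and at 69.4, 73.3 and 73.1 in M2. Its log2 fold changes of 0.86 ± 0.07 and 0.69 ± 0.07 had edgeR adjusted p of 2.65e-07 and 2.84e-06 and were under the fold threshold, and M1 and M2 differed by 0.07 ± 0.05 (edgeR adjusted p = 0.203). Oat, the ornithine aminotransferase of mitochondria, was at 77.3, 76.3 and 71.5 in M0, at 74.8, 79.8 and 76.8 in M2, and at 31.1, 28.8 and 29.6 in M1. It fell in M1 (-1.32 ± 0.05 on the log2 scale, edgeR adjusted p = 1.67e-10), and its M2 value was -0.02 ± 0.05 (edgeR adjusted p = 0.689).

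**Figure D2:**
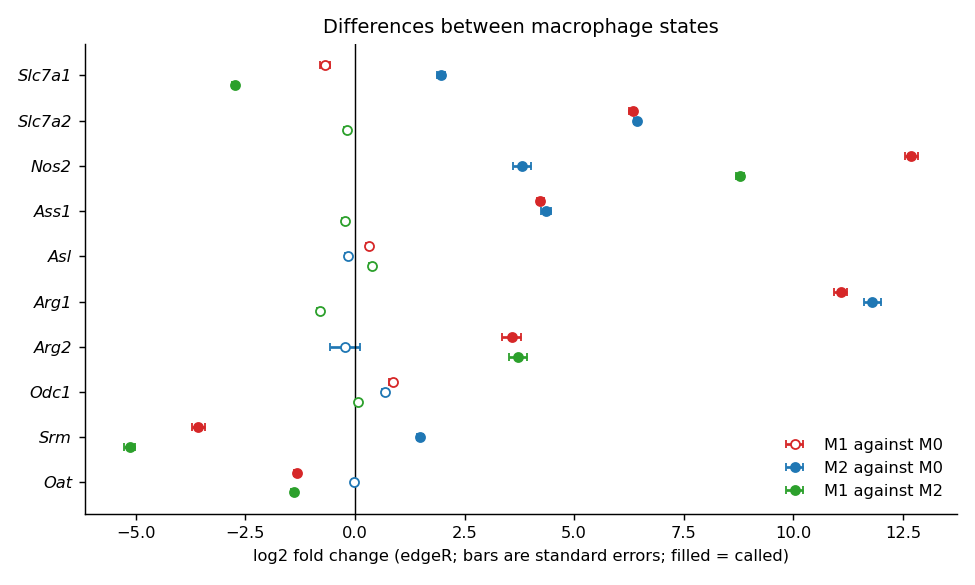
Differences between macrophage states on the log2 scale: each point is the edgeR estimate for 1 gene and comparison, with its standard error, and filled points are called. Srm lies at -3.57 in M1 and 1.48 in M2 against M0, while Slc7a2 and Ass1 lie near 0 in M1 against M2.

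A list of 45 further genes of the same pathways was counted beside the 10, of which 44 are in the tables. In M1, 23 of the 36 tested were called, 5 higher and 18 lower, beside 46.1% of all genes (20.1% higher, 26.0% lower). In M2 it was 12 of 36, 9 higher and 3 lower, beside 22.3% (11.0% higher, 11.3% lower). Between M1 and M2 it was 22 of 36, 3 higher in M1 and 19 lower, beside 48.0% (20.1% higher, 27.9% lower). The largest changes among those called in M1 were Prodh (proline dehydrogenase) at -3.59 ± 0.33 on the log2 scale, Smox (spermine oxidase) at 3.30 ± 0.07, Gch1 (the first enzyme of tetrahydrobiopterin synthesis, the cofactor of nitric oxide synthase) at 3.16 ± 0.07 and Slc25a15 (the mitochondrial ornithine carrier) at -2.64 ± 0.16. Smox stood at 34.1 to 37.5 normalized TPM in M0, 372 to 397 in M1 and 24.8 to 25.5 in M2. In M2 they were Azin2 (an antizyme inhibitor) at 2.68 ± 0.10, Gch1 at 2.38 ± 0.12, Eif5a (the translation factor that is modified with spermidine) at 1.83 ± 0.05 and Paox (polyamine oxidase) at -1.74 ± 0.06. Of the proline genes tested, 5 of 6 were called lower in M1 (26.0% of all genes), and 1 of 6 was called higher in M2 (11.0%).

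In the digits the plot of changes against 0 hours shows where the 10 genes moved. Nos2 had too few counts to be tested in any comparison of a pair of groups, so 9 of the 10 were tested there. Against 0 hours, non-regenerative digits had 2 of 9 called at 6 hours, 2 at 12 hours and 3 at 24 hours, all higher, and these are Odc1 and Srm at each of the 3 times and Ass1 at 24 hours. Of all genes tested, 4.85% were called at 6 hours (3.23% higher), 11.4% at 12 hours (6.76% higher) and 10.7% at 24 hours (5.57% higher). No member was called by edgeR at 3 hours (background 0.0%), 3 days (0.723%), 7 days (0.0537%), 14 days (0.0%) or 21 days (0.452%). At an unadjusted p under 0.05 there were 1, 2, 0, 0 and 2 of them at these times. Of all genes, 1362 of 12562, 1477 of 13286, 566 of 13046, 1044 of 13567 and 987 of 13712 were under it. DESeq2 called 1, 1, 0, 0 and 0 members, beside 1.56%, 3.39%, 1.23%, 2.61% and 1.84% of all genes. All 8 times were set against the same 3 digits of 0 hours. In a test of any change over the 9 times across the 29 non-regenerative digits, Odc1 (edgeR adjusted p = 5.55e-07), Slc7a1 (0.00524) and Srm (0.0152) were called, 3 of 10, beside 7.62% of all genes. In whole digits a lower level from fewer cells of a type and from less RNA per cell cannot be told apart.

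**Figure D3:**
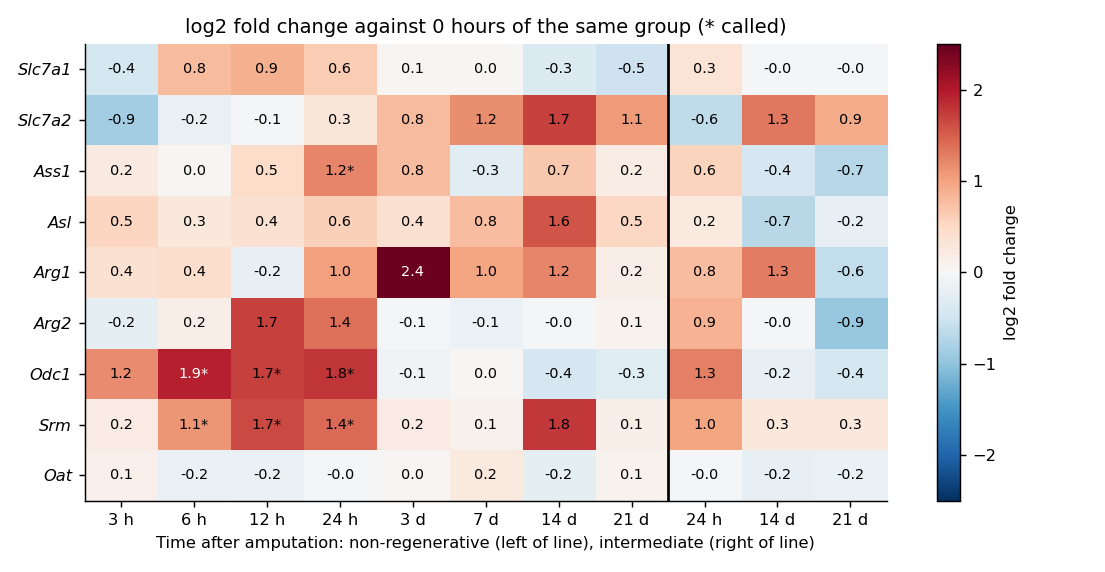
Changes of 9 arginine genes against 0 hours of the same group: each cell is an edgeR log2 fold change, red is higher and blue lower, an asterisk marks a call, and the line separates non-regenerative from intermediate digits. The asterisks stand on Odc1 and Srm at 6, 12 and 24 hours and on Ass1 at 24 hours in non-regenerative digits.

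The 150 bases before the annotated start are shown for Odc1 and Ass1, which were called within 24 hours, for Slc7a1, which was called in the test over time, and for Oat, which was called in neither. RefSeq windows of GRCm38.p6 were matched for 4 of the 10 genes, which are these. The motifs searched on both strands were the GC box (GGGGCGGGG), the AP-1 motif (TGANTCA) and the E-box (CACGTG), and matches are in capitals. No match overlapped another motif.

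Odc1, chr12:17544644-17544793, plus strand: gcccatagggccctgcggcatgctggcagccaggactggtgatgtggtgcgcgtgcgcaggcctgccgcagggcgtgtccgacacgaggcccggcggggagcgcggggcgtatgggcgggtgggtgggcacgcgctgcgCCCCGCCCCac
Slc7a1, chr5:148399905-148400054, minus strand: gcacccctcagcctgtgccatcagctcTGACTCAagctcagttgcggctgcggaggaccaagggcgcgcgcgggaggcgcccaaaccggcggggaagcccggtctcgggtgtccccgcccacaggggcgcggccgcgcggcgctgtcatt
Ass1, chr2:31470057-31470206, plus strand: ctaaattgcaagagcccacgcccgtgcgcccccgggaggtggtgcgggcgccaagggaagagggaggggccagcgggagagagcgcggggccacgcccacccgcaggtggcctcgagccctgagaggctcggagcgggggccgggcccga
Oat, chr7:132576399-132576548, minus strand: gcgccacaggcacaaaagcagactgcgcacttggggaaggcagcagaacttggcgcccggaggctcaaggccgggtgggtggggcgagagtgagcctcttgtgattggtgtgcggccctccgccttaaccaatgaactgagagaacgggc

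Within the full RefSeq windows of 250 bases before to 50 after the start, Odc1 held the GC box at 90 and 17 bases before the RefSeq start, Slc7a1 the AP-1 motif at 123 bases and Ass1 an E-box at 36 bases, outside the stretch shown. Among all 32851 windows of this length, 11.4% held the GC box, 7.81% the AP-1 motif and 7.15% the E-box.

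Odc1 gave the clearest change over time. It was at 96.8, 104 and 88.4 normalized TPM at 0 hours in non-regenerative digits and at 207, 260 and 154 at 3 hours. It reached 320, 421 and 332 at 6 hours, 294, 312 and 299 at 12 hours, and 338, 269 and 346 at 24 hours. By 3 days it was at 103, 75.1 and 92.7, within reach of the starting values. None of the digits from 3 to 24 hours overlapped with those of 0 hours. Against 0 hours its log2 fold change was 1.17 ± 0.24 at 3 hours (edgeR adjusted p = 0.235), 1.95 ± 0.20 at 6 hours (0.00318), 1.70 ± 0.16 at 12 hours (0.000846) and 1.78 ± 0.19 at 24 hours (0.00108), and it was -0.08 ± 0.19 at 3 days (0.912). From 7 to 21 days the 11 digits ran from 53.7 to 116. Within the earlier period, Odc1 was 96.8 in the digit of 0 hours and 320 to 421 in those of 6 hours and 294 to 312 in those of 12 hours. Within the later period it was 88.4 and 104 at 0 hours, 332 at 6 hours and 269 at 24 hours.

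Srm was raised at the same times, at a lower level. It was at 29.9, 23.8 and 17.1 normalized TPM at 0 hours, at 66.5, 56.3 and 39.4 at 6 hours, at 93.9, 62.9 and 86.5 at 12 hours and at 62.1, 70.5 and 69.7 at 24 hours. All digits of these 3 times lay above those of 0 hours. Against 0 hours the differences on the log2 scale were 1.108 ± 0.232 (edgeR adjusted p = 0.0334), 1.66 ± 0.26 (0.00558) and 1.42 ± 0.22 (0.0048). The call at 6 hours was lost in 4 of the 6 fits that each left out 1 digit. With all 41 digits in 1 fit the edgeR adjusted p was 0.367, 0.0448 and 0.108. With the date period added as a term it was 0.379, 0.0861 and 0.12, and the log2 fold changes were 1.070, 1.57 and 1.38, close to those of the separate fits. Odc1 kept its calls there, with edgeR adjusted p of 0.0055, 0.0209 and 0.00793. At 12 hours both genes were called with each digit left out in turn. At 14 days Srm was at 29.7 and 33.3 and at 294 in replicate 2, the library that stood apart.

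Slc7a1 was the transporter called over time in the digits. It was at 27.7, 35.6 and 29 normalized TPM at 0 hours, at 22.1, 24.9 and 17.1 at 3 hours, and at 59.3, 43.4 and 48.4 at 6 hours. It was at 63.5, 49.1 and 48.1 at 12 hours and at 41.4, 46.2 and 49.3 at 24 hours, and between 18.9 and 36.3 in the 14 digits from 3 to 21 days. Digits of 6, 12 and 24 hours lay above and those of 3 hours below the range of 0 hours. The log2 fold changes were 0.79 ± 0.19, 0.89 ± 0.20 and 0.63 ± 0.18 at 6, 12 and 24 hours (edgeR adjusted p = 0.0522, 0.0196 and 0.0497), all under the fold threshold.

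Ass1 was at 48.8, 45.4 and 47.3 normalized TPM at 0 hours and at 117, 106 and 101 at 24 hours. The log2 fold change was 1.22 ± 0.15 (edgeR adjusted p = 0.00198), and all digits of 24 hours lay above those of 0 hours. With all 41 digits in 1 fit the log2 fold change was 1.21 and the edgeR adjusted p was 0.295. At 3 days it was at 61.4, 112 and 64.8, at 14 days 203 in replicate 2 against 37.9 and 60.0, and at 7 days it ran from 5.18 to 70.5. Asl, its partner, was at 12.2 to 18.6 at 0 hours and 12.7 to 26.1 at 24 hours, with a log2 fold change of 0.60 ± 0.31 (edgeR adjusted p = 0.213). Asl reached 109 at 14 days in replicate 2, beside 17.7 and 9.65.

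**Figure D4:**
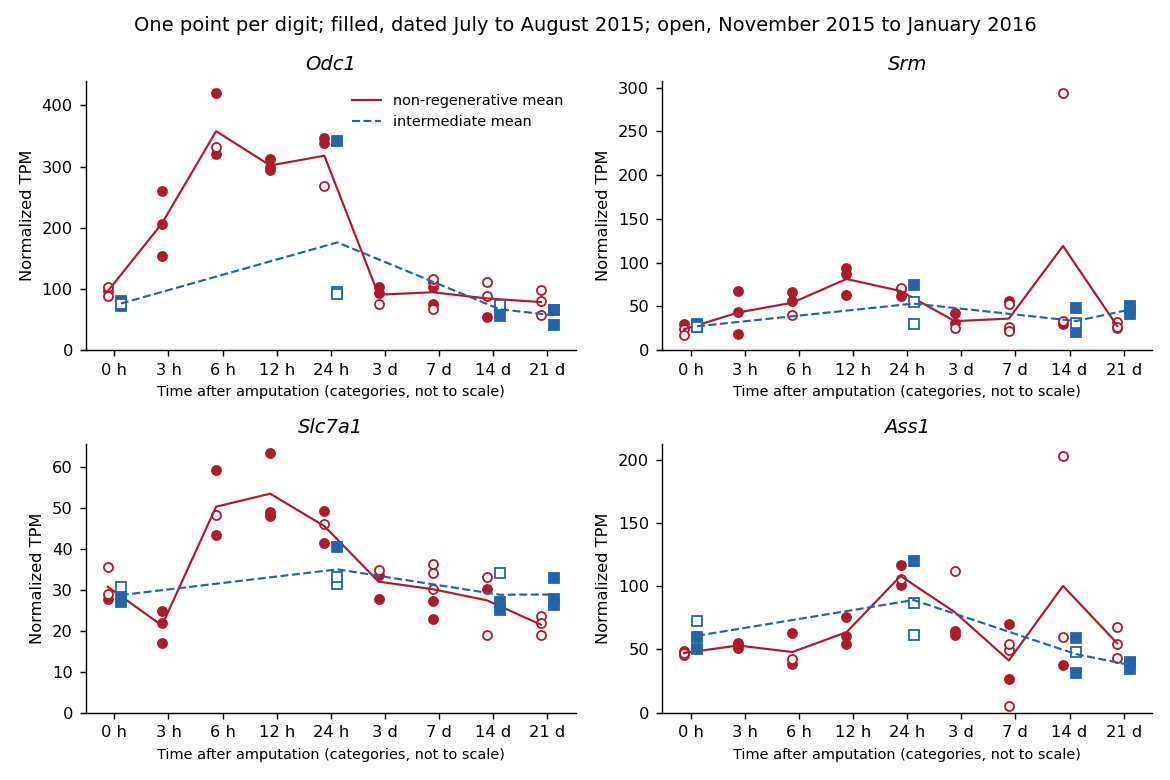
Odc1, Srm, Slc7a1 and Ass1 in digits by time: each point is 1 digit in normalized TPM, circles and the solid line (mean) are non-regenerative, squares and the dashed line intermediate, filled points are from the earlier and open points from the later date period. Odc1 is at 269 to 421 in all non-regenerative digits from 6 to 24 hours, and of the intermediate digits at 24 hours only the filled one, at 342, is in that range.

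Neutrophil markers were also raised from 6 to 24 hours. Of the 7 markers, 5 were tested at 6 hours, 7 at 12 hours and 6 at 24 hours, and 3, 7 and 4 of them were called higher. Their summed level ran from 23.3 to 34.3 normalized TPM at 0 hours, from 192 to 281 at 6 hours, from 447 to 1210 at 12 hours and from 1200 to 1450 at 24 hours, with none of the 7 at 0 in all digits of any of these times. At 3 hours the sums were 16.0, 28.5 and 112, with 0 of 4 markers called. In the same digits Odc1 was at 207, 260 and 154 and was not called by edgeR. At 3 days the sum ran from 697 to 1150, and Odc1 was at 75.1 to 103. Of 6 fibroblast markers, 1 was called lower at 12 hours and 3 at 24 hours. Of 7 keratinocyte markers, 2 were called lower at 12 hours, and 1 lower and 1 higher at 24 hours. The part of these cells in the changes of Odc1, Srm and Slc7a1 was not tested.

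In intermediate digits no member was called by edgeR at 24 hours (background 0.0152%), 14 days (1.68%) or 21 days (1.39%) against 0 hours. At an unadjusted p under 0.05 there were 3, 1 and 3, beside 2034 of 13172, 1790 of 13334 and 2212 of 13360 genes. DESeq2 called 0, 1 and 0 members, beside 2.66%, 3.8% and 3.09% of all genes. Odc1 was at 75.7, 79.5 and 72.7 at 0 hours and at 342, 95.2 and 90.9 at 24 hours. The high digit was replicate 1, the only one of the 3 from the earlier period, and its level lay in the range of non-regenerative digits at 24 hours. The log2 fold change was 1.26 ± 0.49 (edgeR adjusted p = 0.284). The neutrophil markers summed to 1420 in this digit and to 152 and 439 in the others, and Srm was at 74.1 there against 30.2 and 54.8. Their part in the level of Odc1 was not tested. Slc7a2 was at 4.84, 6.13 and 7.46 at 0 hours, at 10.2, 15.1 and 21.7 at 14 days and at 11.96, 9.71 and 15.3 at 21 days, with no overlap. Its log2 fold changes of 1.32 ± 0.29 and 0.92 ± 0.21 had edgeR adjusted p of 0.0676 and 0.0669. Without intermediate replicate 1 at 14 days the first was 1.55 and was called. Osteoblast markers summed to 643 to 1670 at 14 days and 51.6 to 136 at 0 hours, with 5 of 5 called higher and none at 0. Fibroblast markers summed to 10250 to 25290 at 14 days, 9686 to 20820 at 21 days and 1535 to 4529 at 0 hours, with 3 of 6 called higher at 14 days, 4 of 6 at 21 days and none at 0. The part of these cells in the level of Slc7a2 was not tested.

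Intermediate and non-regenerative digits were compared at 0 hours, 24 hours, 14 days and 21 days, to ask whether the level of the cut changed these genes. No member was called by edgeR (background 0.0%, 0.0%, 0.0% and 0.648%). At an unadjusted p under 0.05 there were 2, 0, 0 and 3, beside 491 of 13500, 1472 of 13024, 270 of 13421 and 1927 of 13736 genes. DESeq2 called no member, beside 0.126%, 1.19%, 0.0% and 1.49% of all genes. At 24 hours Odc1 differed by -0.86 ± 0.49 on the log2 scale (edgeR adjusted p = 0.521), and without intermediate replicate 1 by -1.80, which was called. At 21 days Arg1 was at 71.9, 63.5 and 76.5 in intermediate and 143, 193 and 57.6 in non-regenerative digits, a difference of -0.96 ± 0.38 (edgeR adjusted p = 0.31). Without non-regenerative replicate 3 it was -1.29 and was called, but at 21 days the groups are also of different date periods. The change from 0 hours did not pass the edgeR test of a difference between the groups for any of the 10 genes. This held at 24 hours, 14 days and 21 days (background 0.0% each). At an unadjusted p under 0.05 there were 0, 4 and 0, beside 452, 1581 and 190 of all 14768 genes. DESeq2 called no member, beside 0.0406%, 0.0135% and 0.0135% of all genes. In a single draw of simulated data the test of a difference at 24 hours recovered 8.5% of 4-fold changes. Differences of that size in the change from 0 hours were thus mostly not detectable by this test at 24 hours. The tests of a difference at 14 and 21 days were not simulated. Of the direct comparisons of the groups, only that at 24 hours was simulated, and it recovered 81% of 4-fold changes.

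Arg1 stood above Nos2 and Arg2 at the mRNA level in every digit. It was at 52.9, 142 and 154 normalized TPM at 0 hours, at 177, 324 and 190 at 24 hours, and at 575, 442 and 896 at 3 days. All digits of 3 days lay above all digits of the 5 earlier times. The log2 fold change at 3 days was 2.44 ± 0.45, and its edgeR adjusted p of 0.0585 just missed the threshold. It was called without non-regenerative replicate 1 of 0 hours, without replicate 2 of 3 days, with no filter on low counts (adjusted p = 0.0174) and by DESeq2 (4.71e-07). At 7 days the 5 digits had a lowest value of 41.8, a median of 161 and a highest of 444. At 14 days the values were 117, 85.8 and 675 in non-regenerative and 519, 180 and 85.6 in intermediate digits. The high digits are non-regenerative replicate 3 and intermediate replicate 1, whose labels share an animal mark, and these also had the highest neutrophil marker sums of the 14-day digits, 2710 and 2310. The macrophage markers summed to 248, 90.1 and 262 at 3 days and to 72.0 to 135 at 0 hours, with 0 of 7 called and none at 0. Their part in the level of Arg1 was not tested.

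Nos2 was barely detected. It was listed at 0 in 12 of the 41 digits, where a count of 0 allows up to 2.76e-05% to 0.000204% of the counts of a library, and its highest levels were 3.18 normalized TPM in non-regenerative replicate 3 at 14 days (87 counts) and 1.99 at 7 days (19 counts). All other digits held 19 counts or fewer. Arg1 made up at least 98.4% of the summed level of Arg1 and Nos2 in every digit. Over the 9 times Nos2 had an edgeR adjusted p of 0.122, and of 0.0475 with all 41 digits in 1 fit, and DESeq2 gave 0.0234. Arg2 was at 5.08, 1.41 and 3.70 at 0 hours and at 13.6, 6.24 and 11.6 at 12 hours, from 40 to 56 counts, with a log2 fold change of 1.71 ± 0.55 (edgeR adjusted p = 0.0625, and 0.0182 by DESeq2). Slc7a2 was at 7.30, 3.78 and 4.33 at 0 hours and at 26.0, 3.40 and 22.9 at 14 days, where the low value is replicate 2. Oat did not pass the test at any time, and its 41 digits ran from 27.3 to 84.9.

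**Figure D5:**
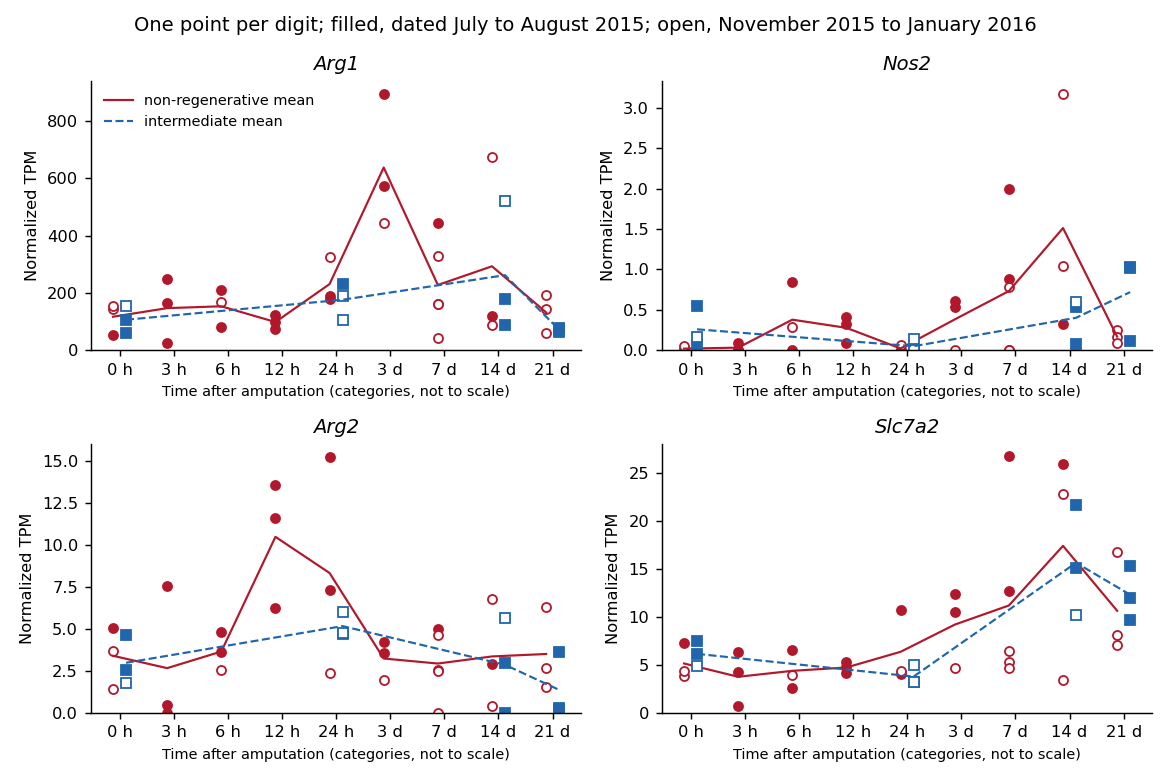
Arg1, Nos2, Arg2 and Slc7a2 in digits by time, drawn as 1 point per digit in normalized TPM with lines through the means: circles and the solid line are non-regenerative, squares and the dashed line intermediate, filled points earlier and open points later in date. Arg1 is highest at 3 days, at 442 to 896, and Nos2 stays at or under 3.18.

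At 0 hours of the non-regenerative group the order of the mean levels was Arg1 (116 ± 55.2, SD, n = 3), Odc1 (96.2 ± 7.57), Oat (51.9 ± 18.0), Ass1 (47.2 ± 1.69), Slc7a1 (30.8 ± 4.21), Srm (23.6 ± 6.40), Asl (14.3 ± 3.70), Slc7a2 (5.14 ± 1.89), Arg2 (3.39 ± 1.85) and Nos2 (0.0168 ± 0.0290). Of the neighbours in this order, Arg1 and Odc1, Oat and Ass1, Slc7a1 and Srm, Srm and Asl, and Slc7a2 and Arg2 had overlapping ranges. At 24 hours Odc1 (318 ± 42.6) stood above Arg1 (230.3 ± 81.7), with overlapping ranges. Slc7a2 was the larger carrier in both M1 and M2, but in digits it made up 2.70% to 54.0% of the summed carrier level.

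Over the 13 digit groups, the 5 genes whose mean level followed Arg1 most closely by Spearman's rho, among 13695 genes with a mean of at least 1, were Stab1 (0.896), Egln3 (0.885), Tmem176a (0.874), Atp6ap1 (0.857) and Bst2 (0.846). For Nos2 they were Extl2 (0.912), Arhgef2, Lox and Spink10 (0.885 each) and Wnt16 (0.879), for a gene at or near 0 in most groups. Slc7a2 had a rho of 0.703 with Nos2, and Arg1 of 0.286. These values describe 13 means that share libraries and depth.

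Of the further pathway genes, 3 of 33 tested were called at 6 hours (2 higher), 7 of 33 at 12 hours (5 higher) and 7 of 35 at 24 hours (3 higher) in non-regenerative digits, beside the backgrounds given above. Over the 9 times 9 of 37 were called, the smallest p being of Azin2 (edgeR adjusted p = 0.00108), Smox (0.00212), Oaz2 (0.00328), an antizyme that marks Odc1 for degradation, and Ddah1 (0.0058), which breaks down methylated arginines. Smox was at 13.5 to 77.3 normalized TPM at 0 hours and 78.9 to 140 at 6 hours, with a log2 fold change of 2.19 ± 0.34 (edgeR adjusted p = 0.014). Oaz2 was at 47.1 to 59.5 at 0 hours, 16.6 to 25.3 at 12 hours and 21.6 to 27.7 at 24 hours, a log2 fold change of -1.14 ± 0.20 at 12 hours (edgeR adjusted p = 0.00909) and -1.03 ± 0.20 at 24 hours (0.0124). Odc1 and Oaz2 were thus called in opposite directions at 12 and 24 hours. At 6 hours Oaz2 was under the fold threshold (-0.83 ± 0.19 on the log2 scale). Oaz1, another antizyme of the list, was called over time but at none of 6, 12 and 24 hours. Azin2 was at 6.26 to 8.72 at 0 hours and at 18.8 and 18.6 at 14 days, with 233 in replicate 2, the library that stood apart. Ddah1 was at 0.146 to 0.895 at 0 hours and 6.68 to 9.60 in the 5 digits of 7 days, with a call at 24 hours (log2 fold change 3.003 ± 0.771, edgeR adjusted p = 0.0321). In intermediate digits 1 of 34 was called at 21 days, Slc7a6, named after its value was seen.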

How the data were processed

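Expected counts per gene were deposited by the authors, who mapped single-end reads to Ensembl mouse genes with Bowtie and counted them with RSEM 1.2.3, with build mm10 and CASAVA also named in the submitters' processing notes. The other files hold a signal deposited as normalized TPM, which the authors scaled between libraries by median-by-ratio within each table. In the digits, 26 gene names that had become dates were restored.

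Expected counts were rounded and tested with edgeR 4.0.16 in R 4.3.3 (filterByExpr, TMM, glmQLFit, glmQLFTest), each comparison on its own groups. The time test used all 29 non-regenerative digits, and the difference between groups all digits of the shared times. Calls needed a Benjamini-Hochberg adjusted p under 0.05 over all genes tested and, for pairs of groups, a change over 2-fold in the mean normalized count plus 1. The study used EBSeq, which was not used here. DESeq2 1.42.0, its size factors, no filter, no fold threshold, 1 fit of all digits with or without the date period, and leaving out each library were the alternatives. In a single draw of simulated data with 4-fold changes, 97% were recovered for M1 against M0. It was 84% for non-regenerative digits at 24 hours against 0 hours and 53.5% for the time test. Replicates differed by more than counting error, with a chi-square per degree of freedom from 3.05 to 411 over 55 pairs. The floor of 3 counts behind a 0 covers counting error only.

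The 10 genes and all lists were chosen with earlier results of these data known. Named beside the 10 were, from the further list, the 4 called genes with the largest change in M1 and in M2 against M0, the 4 with the smallest p over time, and the 5 genes most like Arg1 and Nos2 over the digit groups. Promoter sequences are from RefSeq. Groups came from the sample labels.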

Additional observations from a re-analysis of the deposited data

How the results depend on the processing

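For the macrophages the counts of members called (7, 6 and 5) stayed the same with DESeq2 size factors, DESeq2, no filter on low counts, all 9 libraries in 1 fit, and each library left out. With no fold threshold they were 10, 8 and 9, beside 85.7%, 75.1% and 87.8% of all genes tested. Between macrophage states, correlations of deviations ran from -0.176 to 0.169 for shared replicate numbers and from -0.178 to 0.184 for others. These showed no pairing of the libraries by number, but with 3 libraries per state they cannot exclude it. With the replicate block the counts were again 7, 6 and 5. In non-regenerative digits the 7 calls against 0 hours became 11 with DESeq2 and ran from 6 to 9 with each library left out. DESeq2 called 1.56%, 8.45%, 15.0% and 13.6% of all genes at 3, 6, 12 and 24 hours. At 3, 7, 14 and 21 days it called 3.39%, 1.23%, 2.61% and 1.84%. With the date period in a fit of all 41 digits there were 4. They are the 3 calls of Odc1, which were kept, and Srm at 14 days, which was not among the 7 (edgeR adjusted p = 0.0212). The original calls of Srm and that of Ass1 were lost in this fit. In the separate fit of 14 days against 0 hours, the log2 fold change of Srm was 0.418 without replicate 2, the library that stood apart. The 3 genes called over time became 7 with DESeq2, beside 30.5% of all genes. With all 41 digits in 1 fit they became 5 without the date period (18.9% of all genes) and 5 with it (16.9%). With each library left out there were 3 to 4. Slc7a2 was added without non-regenerative replicate 2 at 14 days and Arg1 without replicate 3. In intermediate digits the 0 calls against 0 hours became 1 (Slc7a2 at 14 days) with DESeq2 and with no filter, beside 3.8% and 1.82% of all genes. With each library left out they were 0 to 1. Between groups at the same time they were 0 to 1, and in the difference of changes 0 in every fit. The cause of these shifts was not tested. Of the members called in any fit, none changed sign under an alternative. Over all genes, the time test called 1100 with TMM, 2354 with DESeq2 size factors and 4406 with DESeq2, and DESeq2 called 1113 at 6 hours where edgeR called 638. Depth limits Nos2 and Arg2, at under 100 counts in 41 of 41 digits each, Asl in 35 and Srm in 12.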
